A study of Rattus norvegicus with 8 samples.

Results

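Whole ventral prostate of third-generation (F3) Sprague-Dawley males at 180 days of age was compared between a vinclozolin lineage and a control lineage. The comparison used the arrays titled for whole ventral prostate, 4 of the 8 in the series, with 2 arrays per lineage. Vinclozolin is a fungicide with antiandrogenic activity. Pregnant founder rats were given intraperitoneal injections from E8 to E14, and the males measured here were their descendants. The treatment text of every sample, including those titled vinclozolin, names the DMSO vehicle alone, so the groups rest on the titles. Each sample pooled several prostates, with no number stated. No label states that both samples of a lineage came from different animals. The p-values rest on the spread between pooled samples of the same group, estimated over the groups of both preparations. That spread may therefore be technical. The other 4 arrays held prostate epithelium from 45-day males of the same lineages, in pools of 11. They contributed to the estimate of the spread and were compared only where stated.

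The rat ventral prostate is a gland of secretory luminal cells that depend on androgen, resting on basal cells and set in a stroma of smooth muscle, fibroblasts, vessels, nerves and resident leukocytes. Its luminal cells carry a large secretory apparatus, fold and glycosylate proteins in the endoplasmic reticulum and Golgi, and export them with ions and small solutes. Genes of interferon response, antigen presentation, skeletal muscle contraction and ventral prostate secretory proteins were set aside as 4 lists, and the account below is about the other genes and functions. In bulk tissue, fewer cells of a type and less RNA per cell cannot be told apart.

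Levels are log2 of the deposited intensity plus 16 after quantile normalisation, so an intensity of 0 is a level of 4 and an intensity of 16 a level of 5. Changes are vinclozolin minus control, given ± the fitted standard error (SE), with n = 2 arrays in each lineage. The SE uses a spread estimated over all 8 arrays. The median deposited intensity was 28.7 and 29.5 in control and 30.3 and 31.5 in vinclozolin, and 32.8% to 36.8% of probe sets lay under 16. The 3' to 5' signal ratio of beta-actin, a sign of RNA integrity, was 3.74 and 3.98 in control and 3.37 and 3.14 in vinclozolin. The 5S ribosomal RNA control probe set read 463 and 479 in control against 189 and 184 in vinclozolin. The part of these differences in the results was not tested. The labelled tissue was checked against its defining genes. Probasin (Pbsn), the androgen-dependent secretory marker, stood at levels of 12.97 and 13.04 in control and 12.72 and 12.66 in vinclozolin. Luminal keratins Krt8 and Krt18 lay between 10.72 and 11.20 on all 4 arrays. The basal keratin Krt5 measured 6.54 and 6.53 against 7.19 and 7.09 (adjusted p = 0.0544), and smooth muscle actin Acta2 lay between 7.08 and 7.64.

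Of 21729 probe sets tested, 379 (1.74%) were called by limma at an adjusted p under 0.05, with 178 higher (0.819%) and 201 lower (0.925%) in vinclozolin. The control and vinclozolin arrays did not overlap for any of these 379, but they did not overlap for 53.9% of all probe sets either. Of the calls, 275 had 1 gene symbol, in 253 genes. The median change was 1.03 among higher calls and -1.07 among lower calls, and the smallest was 0.60. In 21 higher calls the control mean, and in 42 lower calls the vinclozolin mean, was under a level of 5, where folds are understated. The number of calls rested on few arrays. It was 32 without control array 1, 26 without control array 2, 57 without vinclozolin array 1 and 50 without vinclozolin array 2. All 379 kept their sign in these 4 fits, which their lack of overlap fixed in advance. Of the 379, 23 were called in all 4 fits. Of the lists set aside, interferon response had 13 of 43 tested genes called higher and antigen presentation 4 of 26, by brightest probe set. Skeletal muscle had 7 of 33 called lower and secretory proteins 5 of 21. By the probe set of lowest p, the interferon and antigen presentation lists each also had 1 gene called lower. That of antigen presentation was RT1-Bb (-3.02 ± 0.29), whose other probe set measured 1.21.

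**Figure D1:**
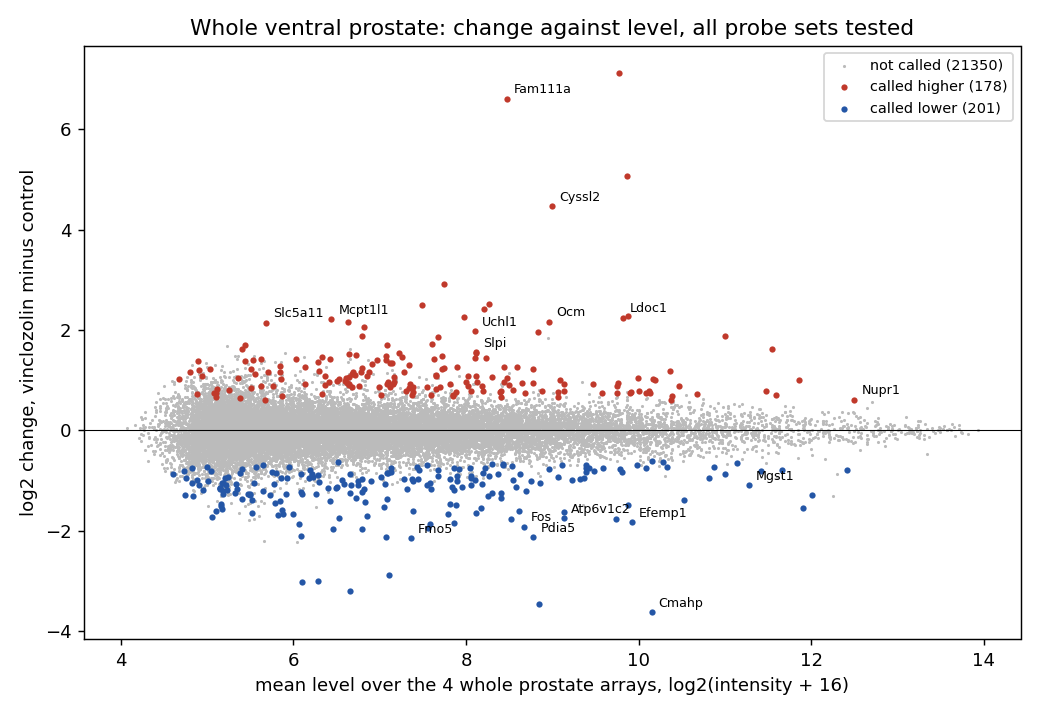
Change (vinclozolin minus control, log2) against mean level over the 4 whole prostate arrays, log2(intensity + 16), 1 point per probe set tested. Calls (178 higher in red, 201 lower in blue) occur at low, middle and high levels, and the brightest probe sets lie close to 0.

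Among named genes outside the interferon, antigen presentation, muscle and secretory lists, Fam111a changed most. Its product is a nuclear protease that acts at replication forks. Fam111a stood at levels of 5.01 and 5.32 in control and 11.68 and 11.86 in vinclozolin, a rise of 6.61 ± 0.15 or 97.5-fold (limma adjusted p = 2.48e-05). It was near the bottom of the scale in control and bright in vinclozolin. A probe set without a single gene symbol rose more, from 6.20 and 6.21 to 13.29 and 13.37 (7.12 ± 0.11, limma adjusted p = 2.63e-06). Another such probe set rose by 5.07 ± 0.14. Cyssl2, a cystatin-like gene, stood at 6.97 and 6.56 in control and 11.24 and 11.23 in vinclozolin, a rise of 4.47 ± 0.17. Its other probe set, the brighter one, rose by 0.79 ± 0.11, so the size of the change differed between probe sets. Ldoc1, a nuclear protein gene derived from a retrotransposon, stood at 8.76 and 8.63 against 11.04 and 10.84 (2.24 ± 0.14).

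The genes Ocm, Uchl1, Slc5a11 and Mcpt1l1, of unrelated functions, rose between 3.94-fold (Uchl1) and 4.66-fold (Mcpt1l1). Each was the only rise on the brightest probe sets of its list, among 32 S100, annexin and EF-hand genes for Ocm, 19 nerve genes for Uchl1, 34 amino acid and inositol carriers for Slc5a11 and 10 mast cell and granulocyte markers for Mcpt1l1. Ocm, which encodes the EF-hand protein oncomodulin, read 7.88 on both control arrays and a mean of 10.05 in vinclozolin (2.17 ± 0.12, adjusted p = 0.00144). Uchl1, a deubiquitinating hydrolase abundant in neurons and neuroendocrine cells, read 7.0 and 7.21 against 9.05 and 9.12 (1.98 ± 0.12). Slc5a11, a sodium-coupled inositol carrier, read 4.28 and 4.94 against 6.82 and 6.69 (2.15 ± 0.22). Mcpt1l1, of the mast cell protease family, read 5.33 on both control arrays against 7.60 and 7.50 (2.22 ± 0.15). In each of these genes the lineages were separated by far more than the gap between arrays of a group. The genes were chosen by their call and lack of overlap, so that separation is a description. The mast cell genes Cpa3 and Cma1 had changes of 0.13 ± 0.21 and 0.12 ± 0.21.

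The largest fall was that of Cmahp, the rat locus of CMP-N-acetylneuraminic acid hydroxylase, an enzyme of sialic acid synthesis. Cmahp stood at 11.95 and 11.97 in control and 8.40 and 8.27 in vinclozolin, a fall of 3.62 ± 0.11 on the log2 scale (adjusted p = 7.13e-05). A second Cmahp probe set also fell, with a change of -3.46 ± 0.15. Fmo5, a flavin monooxygenase, stood at 8.36 and 8.51 against 6.31 and 6.26 (-2.15 ± 0.12). Pdia5, a protein disulphide isomerase of the endoplasmic reticulum, stood at 9.89 and 9.80 against 7.59 and 7.85 (-2.12 ± 0.15). Efemp1, an extracellular matrix glycoprotein (fibulin-3), stood at 10.82 and 10.84 against 8.94 and 9.07 (-1.83 ± 0.11). All 4 stood above a level of 8 in control and above 6 in vinclozolin. The lack of overlap between lineages was a condition for naming them.

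**Figure D2:**
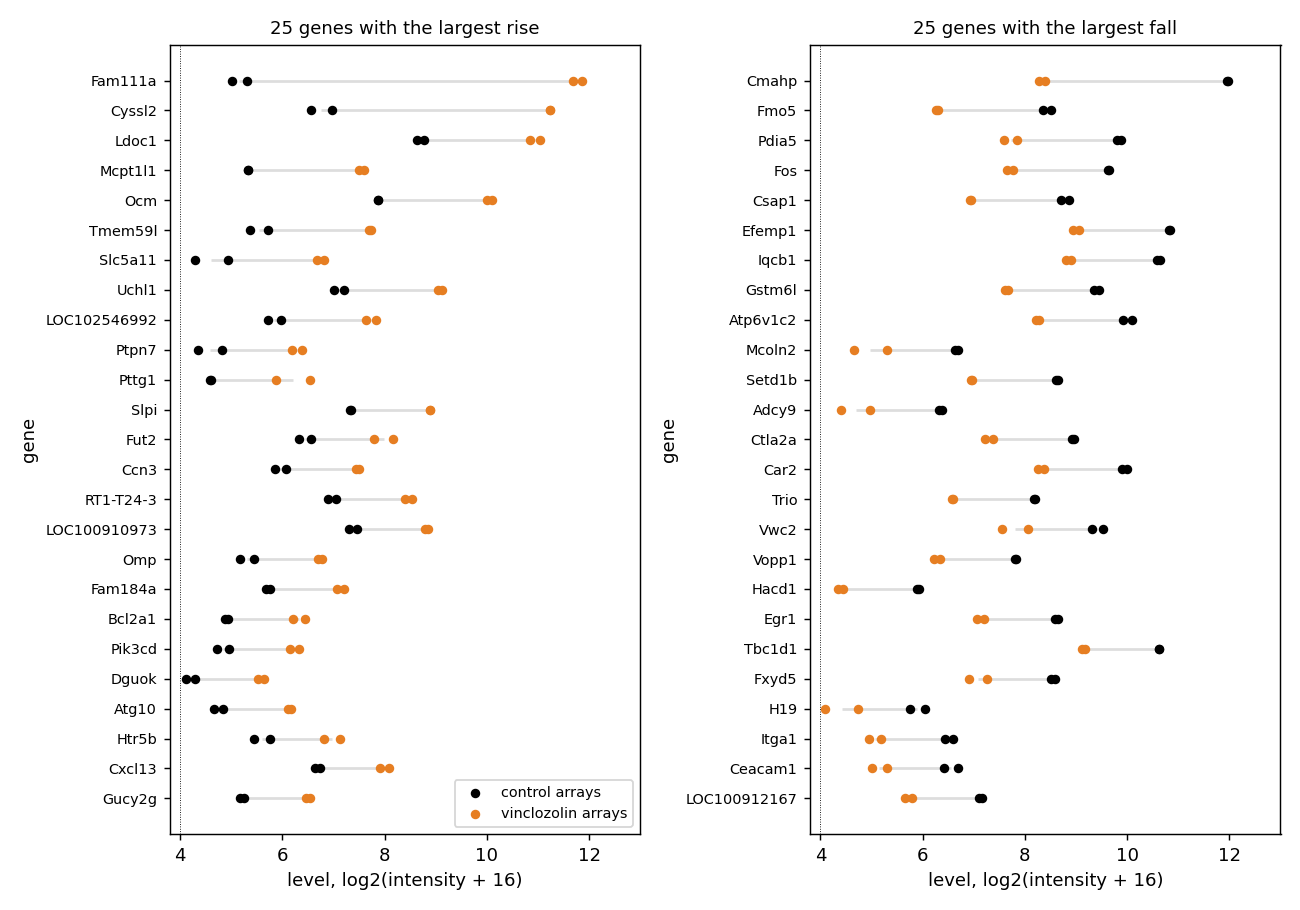
Levels, log2(intensity + 16), on each of the 2 control (black) and 2 vinclozolin (orange) arrays for the 25 genes with the largest rise (left) and the 25 with the largest fall (right) outside the 4 lists set aside. Grey lines join group means and the dotted line is an intensity of 0. The 2 arrays of a group never differed by more than 0.67. That no gene overlapped between lineages was a condition of the choice.

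The 25 named rises ranged from 1.29 to 6.61 and the 25 falls from -3.62 to -1.41, and 38 of these 50 genes had a single tested probe set. In 7 of the 25 rises the control mean was under a level of 5. Of the genes with more than 1 tested probe set, Fut2 (1.01 on the other probe set), Omp (0.67) and Car2 (-1.55) had the same sign on both. Pik3cd measured 1.39 ± 0.16 on the called probe set but 0.04 on the other, and Gucy2g 1.29 ± 0.17 but 0.03. Dguok, mitochondrial deoxyguanosine kinase, measured 1.39 ± 0.14 on one and -0.67 on the other. For these 3 genes the rise was thus seen on 1 probe set alone.

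Several leukocyte signalling genes rose. Of 20 tested genes of Fc receptors and immunoreceptor signalling, 2 were called higher and 0 lower, 17 had a positive change, and the median was 0.54. Over all 11485 genes tested, each by its brightest probe set, 218 (1.9%) were called, 114 (0.993%) higher and 104 (0.906%) lower, 5722 were positive and the median was -0.001. Fcer1g, the signalling chain shared by Fc receptors, rose from 7.58 and 7.57 to 8.59 and 8.74 (1.09 ± 0.13). Fcgr3a, a low-affinity receptor for IgG, rose from 6.16 and 6.05 to 7.36 and 7.18 (1.17 ± 0.19). Btk (0.65 ± 0.13, adjusted p = 0.0691), Lck (0.73 ± 0.14, adjusted p = 0.0591) and the adaptor Tyrobp (0.54 ± 0.11, adjusted p = 0.0715) had positive changes that did not pass. Outside that list Ptpn7, a phosphatase of leukocytes, rose by 1.70 ± 0.25, Bcl2a1, a survival factor of myeloid cells, by 1.42 ± 0.18, and Cxcl13, a chemokine for B cells, by 1.31 ± 0.21. Coro1a (1.16 ± 0.17), an actin regulator of leukocytes, and Mnda (1.18 ± 0.17) also rose, and both were chosen after their values were seen. Cd52, a surface glycoprotein of lymphocytes, fell instead, from 7.31 and 7.20 to 6.17 and 6.33 (adjusted p = 0.0487).

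The marker lists of leukocyte types did not move as one. T and NK lymphocyte markers had a positive change in 15 of 16 genes with a median of 0.62 and 0 calls, and 7 of the 16 had an unadjusted limma p under 0.05, against 19.3% of all genes. Their summed deposited intensity was 454 and 461 in control and 847 and 806 in vinclozolin. The defining gene Cd3e read 4.25 and 4.90 against 5.21 and 5.30, close to the level of an intensity of 0, and Cd4 had a change of -0.09 ± 0.34. Of 20 macrophage and dendritic cell markers, 3 were called higher, 1 lower, and 14 had a positive change, with a median of 0.39. Csf1r, the growth factor receptor of macrophages, rose from 6.33 and 5.99 to 7.37 and 7.16 (1.11 ± 0.15), and Clec4a3, a lectin receptor, by 0.93 ± 0.15. Lgals3, a galectin of macrophages and epithelia, went the other way, from 11.25 and 11.31 to 10.39 and 10.27 (-0.95 ± 0.11), and Lyz2, lysozyme, had a change of -0.86 ± 0.16 that did not pass. As these are the bright members, the summed deposited intensity of the macrophage list was lower in vinclozolin, at 7297 and 7924 against 10768 and 10254. B and plasma cell markers had 0 calls among 10, a median of 0.24, and 2 with an unadjusted p under 0.05. The part of cell number in these results was not tested.

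Protease inhibitors showed 3 genes called higher and 0 lower among 25 tested serpins, cystatins and other inhibitors, with a median of 0.21. Slpi, a secreted inhibitor of leukocyte elastase, read 7.32 and 7.34 in control and 8.88 and 8.90 in vinclozolin (1.56 ± 0.17). Cyss, a cystatin S gene, read 6.59 and 6.65 against 7.62 and 7.46 (0.92 ± 0.15), and its neighbour on the chromosome, Cyssl2, is given above. Cst3, the widely expressed cystatin C, had a change of 0.40 ± 0.11 that was not called, and Serpina3n had one of -0.49 ± 0.17. The abundant cystatin-like gene Cyssl1 stood at 13.65 to 13.81 on all 4 arrays with a change of 0.10 ± 0.11.

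Genes that build terminal sugars on glycans changed in both directions. Fut2, which makes the H antigen of secretions, rose from 6.56 and 6.34 to 7.80 and 8.17 (1.54 ± 0.17). Abo3, a blood group transferase gene chosen after its values were seen, rose on both probe sets, by 0.73 ± 0.12 and 0.88 ± 0.15. Cmahp, of the sialic acid branch, fell. These were 1 rise (Fut2) and 1 fall (Cmahp) among the 41 tested genes of mucin-type O-glycosylation and sialic acid, whose median was 0.09. N-glycosylation genes had 0 calls among 42. An unadjusted limma p under 0.05 was reached by 11 (26.2%, against 19.3% of all genes), 10 of them positive. The median was 0.15 and 30 were positive. Prkcsh, a glucosidase subunit, had a change of 0.61 ± 0.16 and Alg2, a mannosyltransferase, one of 0.60 ± 0.13, neither called.

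Genes of the unfolded protein response and of the ATF4 stress pathway tended to positive changes. Of 37 tested, 2 were called higher and 0 lower, 30 were positive, and the median was 0.23 and lay between 0.18 and 0.24 under every alternative setting. An unadjusted limma p under 0.05 was reached by 19 of the 37 (51.4%, against 19.3% of all genes), 15 of them positive. Psat1, an enzyme of serine synthesis, rose from 8.69 and 8.70 to 9.48 and 9.42 (0.76 ± 0.10), and Nupr1, a stress-induced transcription cofactor, from 12.21 and 12.19 to 12.77 and 12.84 (0.61 ± 0.10). Sesn2, another stress target, had a probe set that fell by 1.04 ± 0.18 and a brighter one with a change of 0.68 ± 0.16 that was not called, so its direction is not settled. Pck2, mitochondrial PEP carboxykinase and chosen after its values were seen, rose by 1.05 ± 0.11. Among 40 genes of disulphide formation and folding in the endoplasmic reticulum, 2 rose and 1 fell, with a median of 0.15. Hyou1, a chaperone of the Hsp70 family, rose by 0.75 ± 0.13 and Dnajc10, a reductase with a J domain, by 0.89 on its brightest probe set, while Pdia5 fell as given above. Genes of Golgi and vesicle traffic had a median of 0.07 with 0 calls among 50, and 9 of these had an unadjusted p under 0.05.

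**Figure D3:**
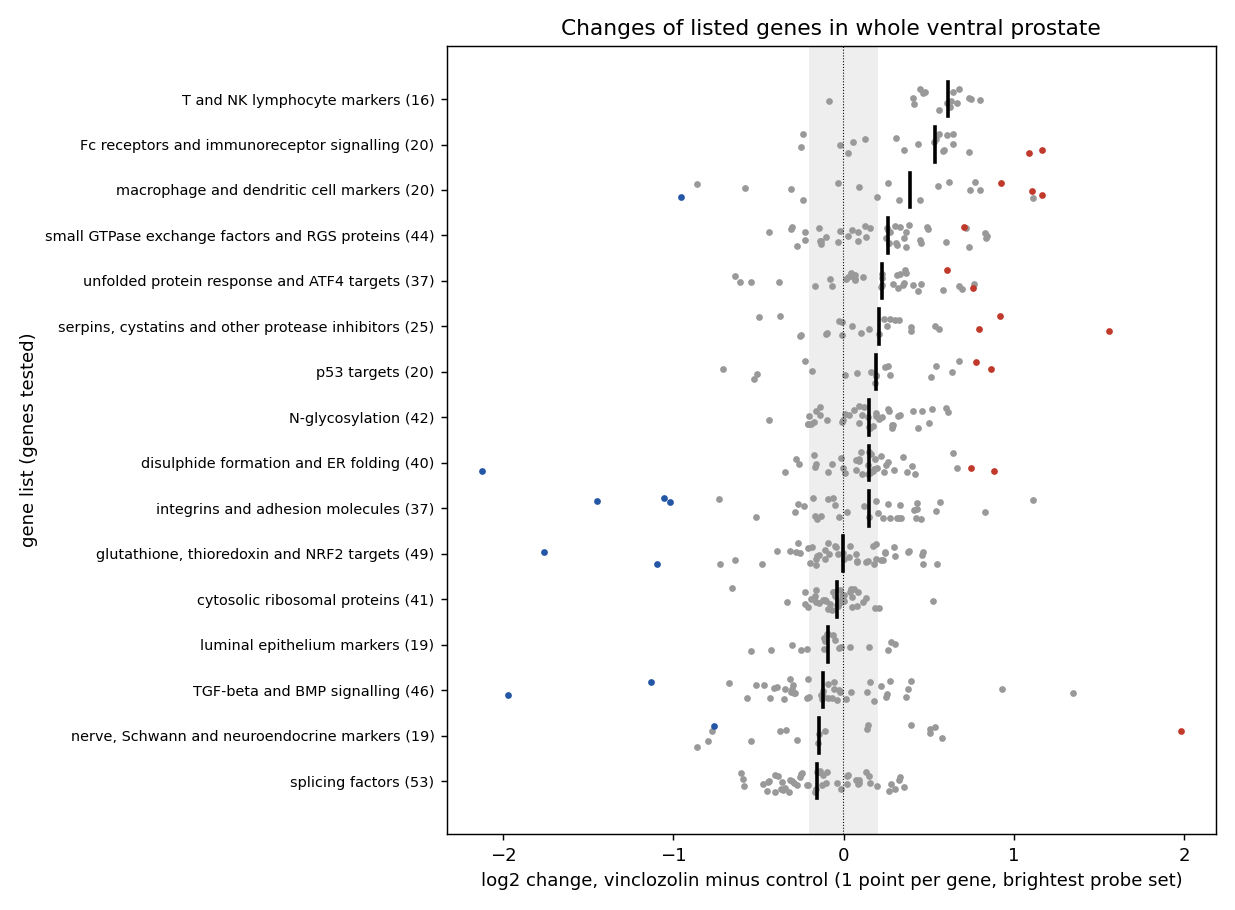
Log2 change of each gene (1 point, brightest probe set) in 16 lists, with the list median as a black bar, calls higher in red and calls lower in blue. The grey band holds the genes between the lower and upper quartile, from -0.20 to 0.20. Medians run from 0.62 for T and NK markers to -0.16 for splicing factors.

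Of the p53 targets, Cdkn1a and Gadd45a rose. Of 20 tested p53 targets, 2 were called higher and 0 lower on the brightest probe set, 15 were positive and the median was 0.19. Cdkn1a, the p21 inhibitor of cyclin-dependent kinases, rose from 7.22 and 7.02 to 8.07 and 7.90 (0.87 ± 0.13). Gadd45a, a growth arrest gene, rose from 7.89 and 7.74 to 8.55 and 8.64 (0.78 ± 0.12). Mdm2 (0.24 ± 0.13) and Ccng1 (-0.18 ± 0.11), other targets, were not called. Pttg1, securin, which guards sister chromatid separation, rose by 1.61 ± 0.26 from levels of 4.61 and 4.59. A further 3 genes chosen after their values were seen also rose, namely cyclin D1 (Ccnd1, 0.84 ± 0.15), Cks2 (0.88 ± 0.15) and Zwint (0.75 ± 0.12). Apart from Fam111a, none of the 40 DNA repair genes tested was called. With Fam111a counted, 5 (12.5%, against 19.3% of all genes) had an unadjusted limma p under 0.05. The median of that list was -0.0004.

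Fos and Egr1, immediate early genes, fell. Fos, a subunit of the AP-1 transcription factor, stood at 9.62 and 9.64 in control and 7.65 and 7.78 in vinclozolin (-1.92 ± 0.12). Egr1, a zinc finger factor induced with it, stood at 8.66 and 8.59 against 7.06 and 7.20 (-1.49 ± 0.12). Fosb (-0.85 ± 0.10), Klf5 (-0.97 ± 0.13) and the insulin receptor substrate Irs2 (-1.19 ± 0.16) fell as well, and these 3 were chosen after their values were seen. Rgs2, a brake on G protein signalling, rose instead, from 11.30 and 11.19 to 11.95 on both vinclozolin arrays (0.71 ± 0.11). On brightest probe sets it was the 1 call among 44 tested small GTPase and RGS genes, of which 31 were positive, with a median of 0.26. Arhgap1, of the same list, was called higher on a dimmer probe set (1.08 ± 0.19), while its others measured 0.25 and -0.23. Map kinase cascade genes had 0 calls among 36, a median of -0.008, and 6 (16.7%, against 19.3% of all genes) with an unadjusted limma p under 0.05. Adcy9, an adenylate cyclase, fell by 1.65 ± 0.24 to levels of 4.97 and 4.41.

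In TGF-beta and BMP signalling, 2 of 46 tested genes fell, 0 rose and 32 were negative, with a median of -0.12 that was negative under every alternative setting. Bmp6, a bone morphogenetic protein ligand, stood at 6.46 and 6.30 against 5.05 and 5.12 (-1.29 ± 0.12), and its brighter probe set fell by 1.97 ± 0.23. Fst, follistatin, a secreted antagonist of activin, stood at 7.16 and 6.98 against 5.78 and 6.10 (-1.13 ± 0.18), while its other probe set measured -0.50. Chrd, chordin, an antagonist of BMP ligands, had the largest positive change (1.35 ± 0.25, adjusted p = 0.0553), which did not pass. Vwc2, a secreted protein with the von Willebrand C domain of that antagonist family, fell by 1.60 ± 0.20.

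Transport of solutes and acid changed in single genes. The inositol carrier Slc5a11 rose, whereas Slc5a3, the sodium-myo-inositol carrier of osmotic regulation, fell from 8.53 and 8.38 to 7.21 and 7.32 (-1.19 ± 0.12). Car2, carbonic anhydrase 2, fell from 9.90 and 9.99 to 8.25 and 8.38 (-1.63 ± 0.11), and its second probe set was also called lower. Atp6v1c2, a subunit of the proton-pumping V-ATPase, fell from 9.92 and 10.09 to 8.23 and 8.29 (-1.75 ± 0.13). Fxyd5 (-1.47 ± 0.15) and Fxyd3 (-0.84 ± 0.12), both regulators of the sodium pump, fell too. Clic4, a chloride channel protein, rose by 0.96 ± 0.13 on 1 of 4 probe sets, and the others measured 0.55, 0.55 and 0.05. Of 41 tested genes of potassium, sodium and chloride channels and pumps, 2 fell and 0 rose on brightest probe sets, and 25 were positive. The median was 0.06, which became -0.12 with a filter at the 50th percentile. An unadjusted limma p under 0.05 was reached by 11 (26.8%, against 19.3% of all genes), 9 negative and 2 positive. Slc44a4, a choline and thiamine pyrophosphate carrier, rose by 0.75 ± 0.11. Across all 211 tested solute carriers of the Slc family, 2 were called higher and 2 lower and the median was 0.03.

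The glutathione transferases Mgst1 and Gstm6l fell. Mgst1, a membrane glutathione transferase, fell from 11.79 and 11.86 to 10.63 and 10.83 (-1.10 ± 0.12). Gstm6l, another glutathione transferase, fell from 9.35 and 9.45 to 7.62 and 7.67 (-1.76 ± 0.12). They were the 2 calls among 49 glutathione, thioredoxin and NRF2 genes, whose median was -0.003. Idh1, the cytosolic NADP-dependent isocitrate dehydrogenase, fell by 0.75 ± 0.11, Akr1c13, an aldo-keto reductase, by 0.94 ± 0.13, and Got2, mitochondrial aspartate aminotransferase, by 0.88 ± 0.15. Idh1 and Got2 were each called on 1 of 2 probe sets, and the others measured -0.28 and -0.27. Acaa2, a thiolase of mitochondrial fatty acid oxidation, rose from 8.01 and 8.02 to 8.85 and 8.76 (0.79 ± 0.12), and its other probe set measured 0.08. The citrate cycle list, which includes zinc-citrate metabolism for which the prostate is known, had a median of 0.001 over 33 genes with 1 call lower on the brightest probe sets. Glycolysis genes had 0 calls among 23 and a median of 0.01, with 7 (30.4%, against 19.3% of all genes) at an unadjusted limma p under 0.05.

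Several adhesion and matrix genes fell. Itga1, the collagen-binding integrin alpha 1, fell from 6.59 and 6.44 to 5.18 and 4.96 (-1.45 ± 0.16). Alcam, an immunoglobulin-family adhesion molecule, fell from 9.44 and 9.34 to 8.27 and 8.41 (-1.06 ± 0.11). Ceacam1 fell by 1.41 ± 0.18, and its other probe sets measured -0.63 and -1.02. The heparan sulphate proteoglycan Sdc2 was called lower on 3 probe sets (-1.0, -0.90 and -0.86), and Pcdh10, a protocadherin, fell by 1.38 ± 0.14, both chosen after their values were seen. Ccn3, a matricellular signalling protein, rose instead, from 6.06 and 5.87 to 7.50 and 7.44 (1.5 ± 0.17), as did the endothelial adhesion molecule Esam (0.73 ± 0.12). Over the 37 tested integrins and adhesion molecules 3 were called lower and 0 higher, yet 21 were positive and the median was 0.15, which became -0.03 without control array 2. Collagen and basement membrane genes had 0 calls among 45 and a median of -0.08. An unadjusted limma p under 0.05 was reached by 6 (13.3%, against 19.3% of all genes).

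Most splicing factors had small negative changes. They had 0 calls among 53, but 36 were negative, the median was -0.16, and it stayed between -0.22 and -0.14 in all 19 settings. An unadjusted limma p under 0.05 was reached by 20 of them (37.7%, against 19.3% of all genes), 16 negative. Clk1, a kinase of splicing factors, read 10.37 and 10.26 against 9.66 and 9.80 (-0.59 ± 0.11, adjusted p = 0.0627). Rbm3, a cold-inducible RNA-binding protein, read 10.86 and 10.76 against 10.33 and 10.08 (-0.60 ± 0.13, adjusted p = 0.0755). U2af2 had the largest positive change, 0.35 ± 0.15. Zinc finger proteins of the Zfp and Znf families were negative in 131 of 201, with 1 rise, 2 falls and a median of -0.09. Setd1b, a histone H3 methyltransferase, fell from 8.60 and 8.65 to 6.97 and 6.96 (-1.66 ± 0.12). The RNA helicase Dhx36 (-1.31 ± 0.17), the chromatin remodeller Chd1l (-1.0 ± 0.12) and the minor spliceosome gene Rnpc3 (-1.07 ± 0.15) fell too, all 3 chosen after their values were seen.

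Markers of nerve differed in direction. Uchl1 rose whereas Pmp22, a myelin protein of Schwann cells, fell from 10.17 and 10.14 to 9.36 and 9.44 (-0.76 ± 0.11), and 11 of the 19 genes in that list were negative. Among markers of seminal vesicle and coagulating gland, the neighbours of the ventral prostate, 3 of 11 fell, namely Msmb, Svs4 and Semg1. Clu rose, on 1 of 2 probe sets (0.14 on the other). Of all genes 1.9% were called. Msmb and Svs4 are also on the secretory list set aside, so their falls are counted in both lists. The summed deposited intensity of the 11 markers was 21781 and 21460 in control and 17255 and 18128 in vinclozolin. The part of adjoining tissue in the results was not tested. The summed deposited intensity of luminal markers, not quantile normalised, was 31033 and 30368 in control against 32698 and 33636 in vinclozolin. On the deposited scale 29 of the 30 brightest genes were also higher in vinclozolin. After quantile normalisation 14 of the 19 luminal genes were negative, with a median of -0.09, which was -0.02 with the values as deposited. None of the 19 was called, and 3 (15.8%, against 19.3% of all genes) had an unadjusted limma p under 0.05, all negative. Fibroblast markers had 0 calls among 18, a median of -0.15 and 3 (16.7%) at an unadjusted p under 0.05. Smooth muscle markers had a median of 0.003 that changed sign between settings. On their brightest probe sets 0 of 19 were called, although 9 (47.4%) had an unadjusted p under 0.05, 8 of them negative.

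After quantile normalisation the most abundant RNAs changed little. For the 30 genes with the brightest probe sets, among them the androgen-regulated secretory genes Andpro, Scgb1d4 and Klk1c9, mitochondrial COX1 and COX2, and ribosomal proteins, changes lay between -0.47 and 0.19. The narrow range depends on that step. On the deposited scale, as log2(intensity + 16), 29 of the 30 were higher in vinclozolin, with changes from -0.12 to 0.49 and a median of 0.29, so these genes have no settled direction. The lowest was S100a7l2, at 13.57 and 13.58 in control and 13.10 and 13.11 in vinclozolin (adjusted p = 0.103). Andpro stood at 13.93 on all 4 arrays, the top of the scale, where a change in level could not be seen after quantile normalisation. A dimmer Andpro probe set, chosen after its values were seen, was called higher, by 1.01. Cytosolic ribosomal proteins had 0 calls and 0 genes with an unadjusted p under 0.05 among 41. Their median was -0.04, but it was 0.17 with the values as deposited, so it has no settled direction.

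Some changed genes lie next to each other, and those outside the naming rule were chosen after their values were seen. Of 11441 tested genes placed on the RefSeq rat assembly GRCr8, 8 pairs of neighbouring tested genes were called in the same direction and 4 in opposite directions. Neighbouring means next to each other among tested genes, so other RefSeq genes may lie between them. In all 253 genes were called on at least 1 probe set, and the number of pairs expected from that share was not worked out. Fmo5 fell beside Chd1l, on opposite strands with starts 24966 bases apart. Ly6e rose beside Ly6c, and Cyssl2 beside Cyss. Myl1 and Lancl1, with 2 RefSeq genes between them, moved in opposite directions. C2cd4a (0.94 ± 0.11) and Vps13c (-1.28 ± 0.15) did so too. Iqcb1, a gene of primary cilia, and Eaf2, a partner of transcription elongation factors that is regulated by androgen in prostate, are transcribed away from each other, with starts 107 bases apart. Iqcb1 fell from 10.65 and 10.59 to 8.81 and 8.91 (-1.76 ± 0.14), and Eaf2 from 12.7 on both control arrays to 11.3 and 11.4 (-1.29 ± 0.11). The 300-base RefSeq promoter window of Eaf2 (GRCr8) thus lies over the shared region between both starts and is shown for that reason. Capitals mark CCAAT, found at 2 places on the sense strand. The match beginning at -34 from the Eaf2 start lies between both starts. The match beginning at -216 lies beyond the Iqcb1 start.
Eaf2, chr11:77465335-77465634, + strand: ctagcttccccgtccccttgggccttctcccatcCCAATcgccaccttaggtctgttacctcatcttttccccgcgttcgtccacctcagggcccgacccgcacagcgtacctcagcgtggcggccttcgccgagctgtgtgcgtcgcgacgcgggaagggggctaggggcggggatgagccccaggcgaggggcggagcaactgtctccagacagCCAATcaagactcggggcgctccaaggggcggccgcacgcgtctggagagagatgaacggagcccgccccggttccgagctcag

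Promoters were searched for short motifs on both strands, over the 300 bases of RefSeq around each start. The core of the interferon-stimulated response element, GAAANNGAAA, was in 13 of 91 promoters of genes called higher (14.3%), 3 of 102 called lower (2.94%) and 281 of 9509 of all genes tested (2.96%). Outside the interferon and antigen presentation lists it was in 7 of 77 of those called higher (9.09%). Those 7 were Cyss, Dtx3l, Fcgr3a, Ifitm2, Irgm2, LOC100910973 and Wdr25, of which Dtx3l, Ifitm2 and Irgm2 are also known to be induced by interferon, so the share is not free of such genes. The AP-1 site TGANTCA was in 6.59% of promoters of genes called higher, 7.84% of those called lower and 4.85% of all tested. The TATA box TATAAA was in 17.6%, 11.8% and 7.13%, and CCAAT in 53.8%, 39.2% and 37.8%. A match is a description of the letters, not a site of binding. Matches to the response element core are shown in capitals, with 15 bases on each side, for 2 genes of known interferon response that rose (Ifitm2 and Irgm2), for 3 that rose outside those lists (Fcgr3a, Cyss and Wdr25) and for Cmahp, which fell. These 6 were chosen after their values were seen.
Ifitm2, chr1:205482357-205482396, - strand: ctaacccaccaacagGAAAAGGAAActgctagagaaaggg
Irgm2, chr10:42889853-42889892, + strand: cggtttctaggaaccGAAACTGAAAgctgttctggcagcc
Fcgr3a, chr13:85782516-85782555, + strand: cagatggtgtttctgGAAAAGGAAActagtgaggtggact
Cyss, chr3:157897371-157897410, - strand: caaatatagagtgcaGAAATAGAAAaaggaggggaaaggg
Wdr25, chr6:133575187-133575226, + strand: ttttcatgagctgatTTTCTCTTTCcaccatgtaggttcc
Cmahp, chr17:41068022-41068061, - strand: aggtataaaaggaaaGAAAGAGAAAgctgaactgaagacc
The sequences run 5' to 3' on the strand of the gene, and that of Wdr25 holds the core on the opposite strand. The same letters thus occur near the start of genes that rose and of the gene that fell most.

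The 50 most changed named genes were set against epithelium at 45 days, where age and preparation cannot be told apart. Of the 50, 29 had a change of the same sign in epithelium, and for 20 the difference between the preparations was called by limma, against 63 (0.29%) of all probe sets tested. Since these genes were chosen by their change in whole prostate, that count is a description. Cmahp had a change of -0.13 ± 0.11 in epithelium, a difference of -3.49. Fos had one of -0.08 and Egr1 one of 0.02 there, with differences of -1.84 and -1.51. Car2 had the opposite sign, at 0.77 in epithelium. Slc5a11 (2.45 ± 0.22, limma adjusted p = 0.0626) and Setd1b (-0.95 ± 0.12, adjusted p = 0.113) had the same sign in epithelium but were not called there. Their differences between the preparations were not called either. Of the 50 genes, 0 were called in epithelium.

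**Figure D4:**
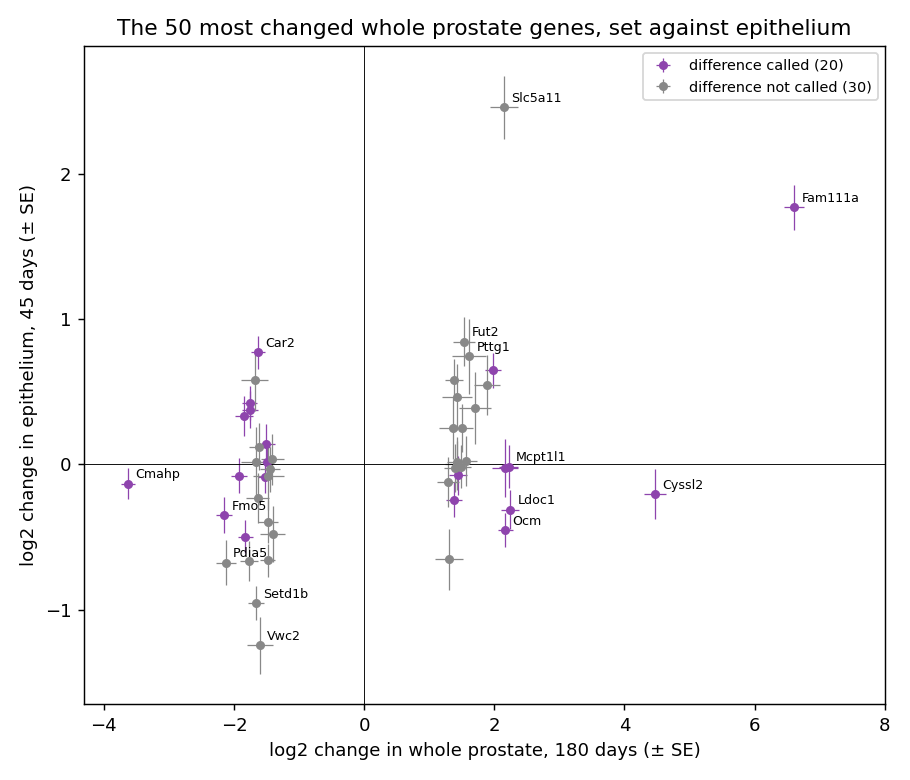
Log2 change in whole prostate at 180 days (horizontal) against epithelium at 45 days (vertical) for the 50 most changed named genes, with SE of the fit as bars. The 20 genes whose difference between preparations was called are purple. Most points lie near 0 on the vertical axis, with Slc5a11 and Fam111a high on both, but 0 of the 50 genes were called in epithelium.

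The calls that held in each of the 4 fits leaving out 1 whole prostate array were the most stable against single arrays. They were 14 higher and 9 lower probe sets, and the named genes outside the lists set aside were Fam111a, Cyssl2, Ldoc1, Mcpt1l1, Ocm and Uchl1 among the rises and Cmahp, Fmo5, Fos, Efemp1 and Gstm6l among the falls. Of the other called genes named above, all but Myl1 lost their call in at least 1 of these fits. Data of this design were also simulated, with noise drawn from the prior of the fit. There the fit called 37 of 100 probe sets given a change of 1 on the log2 scale and 93 of 100 given a change of 2. A change near 1 was thus often missed in the simulation. Fewer probe sets were changed there than were called in the data, so these shares need not hold for the data.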

How the data were processed

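The authors deposited 1 linear intensity per probe set and array, for 31099 probe sets of an Affymetrix rat array hybridised with biotin-labelled RNA. The method of summary and scaling was not given in the sources used here. The 57 control probe sets were left out, log2(intensity + 16) was taken and quantile normalised over the 8 arrays, and the dimmest probe sets, up to the 30th percentile of mean level, were dropped, leaving 21729. With the added 16, folds of dim probe sets are understated. Group means of all 8 arrays were fitted with limma 3.58.1 in R 4.3.3 (4 residual degrees of freedom, prior 2.62), and a probe set was called at a Benjamini-Hochberg adjusted p under 0.05. The number of arrays limits the precision. On simulated data of 21729 probe sets, 7 of 137 calls were false, but the noise was independent and drawn from the prior of the fit itself. That share therefore does not measure false calls in the deposited data.

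Of the probe sets, 20832 had 1 gene symbol and 436 several, and only those with 1 were named. Entrez identifiers of 20764 were found in RefSeq (GRCr8), and 0 symbols needed an update. Of 14218 genes on the array, 11485 were tested, and a list counts each gene by its brightest tested probe set. Promoters are the first listed per gene in RefSeq. Genes were named by a rule. It took the 25 largest rises and 25 largest falls among calls with 1 symbol outside the 4 lists set aside. The arrays of the lineages had to be without overlap, and 1 probe set per gene (lowest p) was used. Added were up to 4 called members of lowest p per list, the 30 brightest genes and the tissue markers. The 56 gene lists, 16 symbol families and the genes were chosen with earlier results of these data known. Same-numbered arrays did not deviate together from their group means (correlation 0.0028), so replicate numbers pair no samples. Alternatives varied the pseudocount, normalisation, filter, prior, array weights, arrays used and the replicate block.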

Additional observations from a re-analysis of the deposited data

Results flagged for a closer look

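A difference between the effect in whole prostate at 180 days and the effect in epithelium at 45 days, tested as an interaction in limma, drew attention to 34 named genes, with adjusted p between 0.000939 and 0.0498. The values in brackets are whole prostate change minus epithelium change, on the log2 scale. More positive in whole prostate were Fam111a (4.84), Cyssl2 (4.68), Ocm (2.62), Ldoc1 (2.55), Mcpt1l1 (2.24), Tmem59l (2.19), Atg10 (1.63), LOC100910973 (1.52) and Uchl1 (1.33). Among immune genes the same held for RT1-Ba (2.59), Usp18 (2.45), Ifi27 (1.61), Fcer1g (1.48) and Irf8 (1.42). RT1-Ba was called higher in whole prostate on 1 of 4 probe sets, and the others changed by 0.21, 0.41 and -0.54. More negative in whole prostate were Efemp1 (-1.33), Vopp1 (-1.44), Egr1 (-1.51), Hacd1 (-1.65), Fmo5 (-1.80), Fos (-1.84), Bmp6 (-2.01), Atp6v1c2 (-2.13), Csap1 (-2.17), Gstm6l (-2.18), Akr1c13 (-2.21), Car2 (-2.40) and Cmahp (-3.49). Among muscle and accessory gland secretion genes the same held for Semg1 (-1.36), Tnnc2 (-1.64), Svs4 (-1.75), Tpm1 (-2.09), Msmb (-2.25), Wfdc5 (-2.26) and Myl1 (-2.55). Age and preparation changed together, and most of these genes were chosen by their change in whole prostate. No group had the 4 samples that a check for single outlying arrays needs.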

How the results depend on the processing

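The 106 called named genes kept their sign under every alternative that tested them. As their lineages did not overlap, only another pseudocount or normalisation could have changed the sign. The filter at the 50th percentile left out 8 of them, and of the 98 tested under every alternative 15 were called in each. The counts of calls moved much more. Main counts were 379 in all (178 higher, 201 lower), with 63 differences between preparations. They were 871 (397, 474) with array weights, 965 (455, 510) with a filter at the 50th percentile and 169 differences, and 1133 (549, 584) with a pseudocount of 64 and 262 differences. A trended robust prior gave 1814 (878, 936) and 540 differences. Counts were 200 (85, 115) with no filter and 32 differences, 235 (96, 139) with a pseudocount of 1 and 40 differences, and 65 (28, 37) with the whole prostate arrays alone. Median centring gave 493 calls, 178 higher and 315 lower, so the share of lower calls was larger there. The other counts under median centring, with the values as deposited (490 calls) and with array weights (65 differences) stayed within 1.5 times. Leaving out 1 of the 8 arrays gave 26 to 220 calls, 16 to 93 higher, 10 to 127 lower and 5 to 18 differences. Without an epithelium control array there were 220 calls and without an epithelium vinclozolin array 199. The replicate block gave 32 calls, 17 higher and 15 lower, and 5 differences, although no pairing of arrays by number was seen. Apart from the construction of each alternative, the cause was not tested. The median change of all probe sets stayed between -0.051 and 0.004. In the simulation with 2 arrays per group, changes near 1 log2 unit were often not called. The signal of dim probe sets near an intensity of 0 limits their folds.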
